A study of Rattus norvegicus with 12 samples.

Results

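The cytosolic ribosomal protein genes encode the proteins of the ribosome that translates nuclear-encoded mRNA, and they were followed here in the cerebral cortex of rats after embolic stroke. Members were the rows of the gene table whose symbol begins with Rpl or Rps and a digit, or is Rplp0, Rplp1, Rplp2 or Rpsa, leaving out the Rps6k kinases and the names that hold -ps. This rule took 75 of 17268 rows, of which 64 are core ribosomal proteins (36 of the large subunit and 28 of the small) and 11 are paralogs or like genes. The set was proposed with earlier results of the same libraries in view, where 1 Model library was seen near Sham at some of the genes. The members were chosen by symbol alone, and the subset at which that library lay with Sham was selected on the CPM of all 12 libraries. Poly(A) RNA was sequenced from male Sprague Dawley rats in 4 groups of 3 libraries each. The Sham rats had the neck vessel surgery without an embolus. All other rats received a blood clot in the middle cerebral artery, with no further treatment in Model, with the thrombolytic rt-PA (recombinant tissue plasminogen activator) at 6 h in rt-PA, and with acupuncture at GV26 and PC6 at 2 h, ahead of the same rt-PA, in rt-PA+Acu. No group had acupuncture without rt-PA, and the time at which cortex was taken for sequencing is not given in the sources used here.

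Ribosomal proteins are built into the large and small subunits together with ribosomal RNA, in about equal molar amounts, so their genes are usually expressed together. Their mRNAs begin with a C and a run of pyrimidines (C or T), the 5′ terminal oligopyrimidine or TOP element, through which the mTOR kinase, acting by way of LARP1, sets how well they are translated. Myc and the RNA polymerase I machinery raise the output of new ribosomes in growing cells. In the brain, ribosomal protein mRNAs are found in all cell types, so a level in whole cortex is a sum over neurons, glia, vessel cells and any blood cells that entered.

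RefSeq's promoter table (assembly GRCr8) held 50 of the 64 core members, and 17 of these (34.0%) had a C at the annotated start followed by 4 bases that are each C or T, read on the gene's strand. Over all 27457 promoters of the table this share was 2.63%. Allowing such a stretch within 10 bases of the start, the shares were 74.0% of core members and 28.8% of all promoters. Of the 7 paralog and like members in the table, 0 had it at the start. The stretches below run from 30 bases before the start to the first 20 bases of the transcript, with the pyrimidine run that touches the start in capitals. They are shown to set members at which Model replicate 3 lay with Sham (the first 3) beside members at which it lay with the other Model libraries (the last 3).
Rpl39, chrX:121195877-121195926, minus strand: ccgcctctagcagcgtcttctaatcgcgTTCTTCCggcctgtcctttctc
Rpl9, chr14:43247560-43247609, plus strand: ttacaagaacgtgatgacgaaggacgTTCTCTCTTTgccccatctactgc
Rpl22, chr5:168117931-168117980, plus strand: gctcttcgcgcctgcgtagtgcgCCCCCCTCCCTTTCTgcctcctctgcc
Rplp0, chr12:46718371-46718420, minus strand: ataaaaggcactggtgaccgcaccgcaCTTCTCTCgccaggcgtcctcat
Rpl19, chr10:83519034-83519083, plus strand: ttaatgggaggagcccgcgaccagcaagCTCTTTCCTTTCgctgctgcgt
Rpl10a, chr20:6390503-6390552, plus strand: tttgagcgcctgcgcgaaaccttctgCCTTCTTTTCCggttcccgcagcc
All 6 have the element at the start. It was found there in 3 of 7 matched members of the first kind and in 14 of 43 of the second. The first 3 stretches above are thus those of the 7 that have it, and the last 3 are among the 14. They do not stand for members without the element at the annotated start. Whether the annotated starts are those used in cortex was not examined, so a member counted without the element may still have it. Within 10 bases of the start it was found in 7 of 7 (100%) and in 30 of 43 (69.8%). The median length of the run was 7 and 8 bases.

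Total counts per library lay between 11678450 and 13616935, so 3 counts stood for 0.208 to 0.262 CPM (counts scaled to a common, TMM-normalized library size). Of the 75 members, 71 passed the filter on low counts in each comparison. The others were Rpl3l, Rpl39l, Rpl30l1 and Rps12l2, which stood between 0 and 1.248 CPM in all 12 libraries. RefSeq lists between 2 and 36 pseudogene or like entries for each core member. The study states that uniquely mapped read pairs were counted. Whether reads of near-identical copies were lost or given to another copy was not examined, and the levels are uncertain to that extent. Marker genes of cortex were present in each library. The summed level of 8 neuronal genes was 7542 to 8188 CPM in Sham, with 5425 to 5768 for Model, 4184 to 5434 for rt-PA and 5197 to 7998 for rt-PA+Acu. The 8 did not move as 1, since 4 had a positive log2 fold change in Model over Sham. The mean of Camk2a fell from 2673 CPM in Sham to 540 in Model, while that of Gad1 rose from 267 to 484.

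Member genes together took 1.15% to 1.40% of all counts in Sham, with 1.67% to 1.77% for Model, 1.83% to 2.15% for rt-PA and 1.15% to 1.58% for rt-PA+Acu. The group means were 1.29 ± 0.128% for Sham, 1.74 ± 0.0581% for Model, 1.94 ± 0.177% for rt-PA and 1.35 ± 0.218% for rt-PA+Acu (SD, n = 3). Every Model and rt-PA library lay above every Sham and rt-PA+Acu library. Within a group the core members moved together. Sham replicate 2 had the highest level of the group at 57 of 64 core members and Sham replicate 3 the lowest at 61, rt-PA replicate 1 was highest at 58, and rt-PA+Acu replicate 2 was lowest at 60. In Model no library held such a place, with the highest level in replicates 1, 2 and 3 at 20, 15 and 29 core members.

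**Figure D1:**
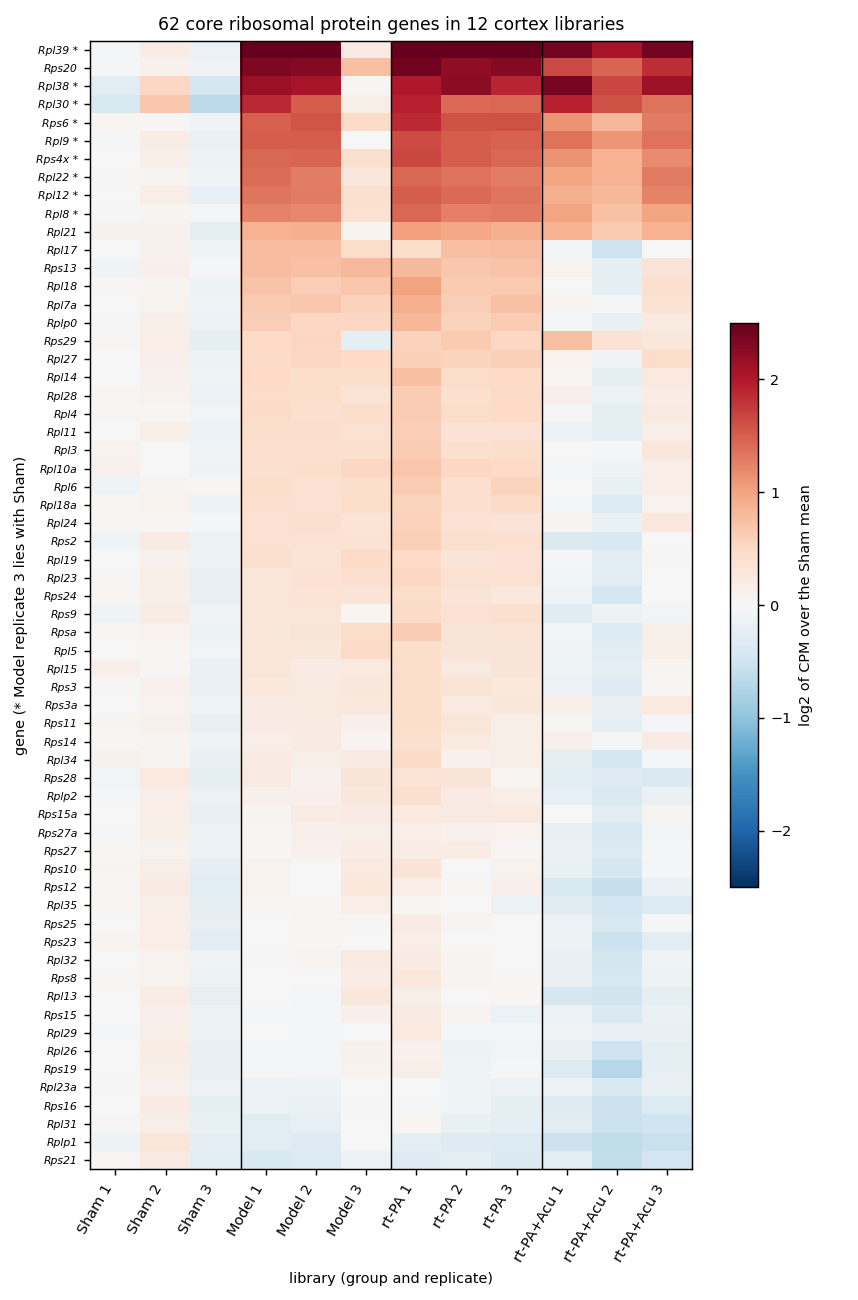
Level of 62 of the 64 core ribosomal protein genes (rows) in 12 libraries (columns), as the log2 of CPM over the mean of the Sham libraries, with colours saturated at 2.5 in either direction. Rows are ordered by the mean of Model replicates 1 and 2, and asterisks mark the 9 genes at which Model replicate 3 lies with Sham.

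At a group of members Model replicate 3 did not lie with the other injured libraries. A member was counted as lying with Sham there when Model replicate 3 was within 1.5-fold of the Sham range and the other 8 injured libraries were all more than 1.5-fold outside it on the same side. This held for 9 members, namely Rpl8, Rpl9, Rpl12, Rpl22, Rpl30, Rpl38, Rpl39, Rps4x and Rps6, of 72 with enough counts. Over all genes it held for 50 of 13298 (0.376%). The same rule applied to each of the other 8 injured libraries gave 0 members. Over all genes it held for 177 (1.33%) with rt-PA+Acu replicate 1 and for 87 (0.654%) with rt-PA+Acu replicate 2. Both are more than the 50 of Model replicate 3. With each of the remaining injured libraries it held for at most 0.12% of genes. The CPM of these libraries chose the 9 genes, so these counts are given as a description without a test.

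Rpl39, a small protein that lines the exit tunnel for the nascent chain, was at 9.86, 11.6 and 9.17 CPM in Sham, at 60.5, 63.2 and 11.7 CPM in Model replicates 1, 2 and 3, at 66.5, 71.0 and 59.4 CPM in rt-PA, and at 53.5, 42.5 and 53.7 CPM in rt-PA+Acu. Model replicate 3 was next to Sham and below every other injured library. Rpl38, a large subunit protein known for its role in translating Hox mRNAs, was at 15.5, 26.7 and 13.9 CPM in Sham, 82.2, 78.1 and 19.1 in Model, 74.7, 88.2 and 69.8 in rt-PA, and 97.1, 59.8 and 81.7 in rt-PA+Acu. Here Model replicate 3 was inside the Sham range. Rpl9 was at 135, 157 and 123 CPM in Sham, 393, 395 and 139 in Model, 428, 393 and 382 in rt-PA, and 352, 295 and 353 in rt-PA+Acu, with the same order of libraries.

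Rps6, the small subunit protein that S6 kinases phosphorylate, was at 139, 137 and 126 CPM in Sham, 377, 396 and 186 in Model, 490, 406 and 403 in rt-PA, and 292, 237 and 331 in rt-PA+Acu. Model replicate 3 was above Sham and below the others. Rps4x, the X-linked small subunit protein, stood at 138, 152 and 128 CPM in Sham and at 374, 384 and 183 in Model. Rpl22, an RNA-binding large subunit protein, stood at 54.3, 55.7 and 49.1 CPM in Sham and at 139, 129 and 64.8 in Model. At both genes Model replicate 3 was above all Sham libraries and below all other injured libraries. Rpl8, next to the catalytic centre, and Rpl12, at the base of the stalk, showed the same order, with Model replicate 3 at 184 and 140 CPM against Sham maxima of 148 and 120. Rpl30 was the most variable of the 9 in Sham, at 24.6, 51.8 and 20.5 CPM, and Model replicate 3 at 35.8 lay inside that range.

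Over the 9 members the log2 ratio of Model replicate 3 to the Sham mean lay between 0.01 and 0.47 (median 0.29), while that of Model replicates 1 and 2 lay between 1.22 and 2.60 (median 1.51). Over the other 55 core members the medians were 0.27 and 0.25, and Model replicate 3 was above both other Model libraries at 29 of them. Model replicate 3 was above every Sham library at 41 of the 55. In the 66 other members together the share of counts was close to equal in the Model libraries, between 1.55% and 1.57%, against 1.08% to 1.32% in Sham. In the 9 members it was 0.215% in Model replicates 1 and 2 and 0.0986% in replicate 3, against 0.0663% to 0.0824% in Sham.

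**Figure D2:**
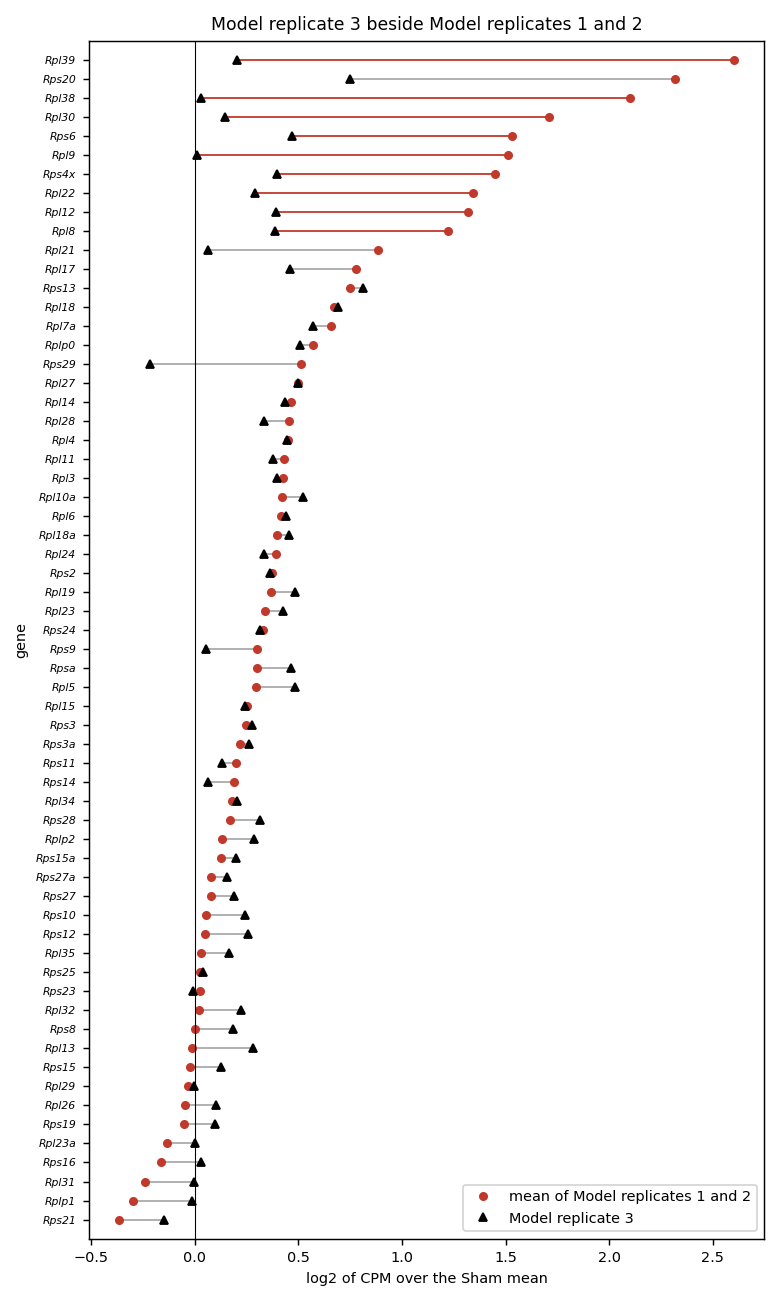
Log2 of CPM over the Sham mean for 62 core members, as a circle for the mean of Model replicates 1 and 2 and a triangle for Model replicate 3. Red lines join the 2 values at the 9 members, where the triangles lie between 0.01 and 0.47, and grey lines join them at 53 others.

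Members just inside the rule were Rpl12, where the lowest of the other 8 libraries was 1.58 times the Sham maximum, and Rps6, where Model replicate 3 was 1.33 times the Sham maximum. Just outside were, among others, Rps20, at which Model replicate 3 was 1.56 times the Sham maximum, and Rpl21, at which the lowest of the other 8 was 1.47 times the Sham maximum. Rps20 was at 42.5, 46.5 and 40.5 CPM in Sham and at 218, 213 and 72.5 in Model. At Rps29 Model replicate 3 was below the other Model libraries too, with a log2 ratio to the Sham mean of −0.22. With a narrower margin the rule gave 10 members (Rpl21 was among those that joined, and Rps6 left), and with 2-fold it gave 3, Rpl38, Rpl39 and Rps20. The number of pseudogene or like entries in RefSeq was 6 to 27 for the 9 (median 13) and 2 to 36 for the other 55 (median 14).

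**Figure D3:**
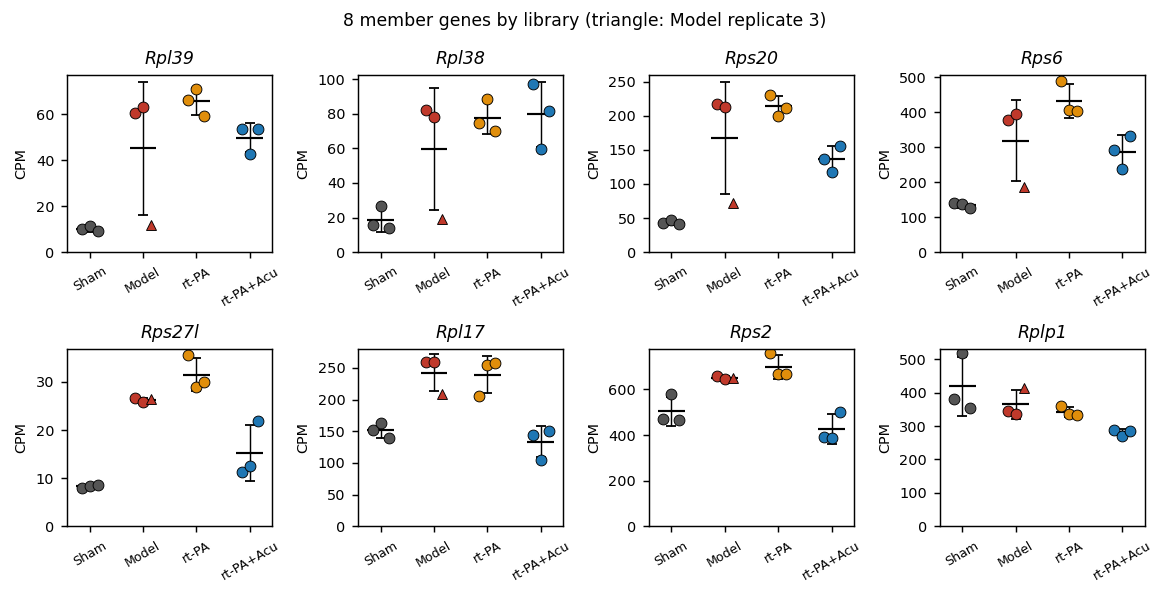
Level in CPM of 8 member genes in each library, with the mean (line) and SD (bar) of each group of 3; a triangle marks Model replicate 3. It lies at 11.7 CPM for Rpl39 and 19.1 for Rpl38, near Sham, and at 26.4 for Rps27l, with the other Model libraries.

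Comparing Model with Sham asks how the untreated embolic stroke changed the cortex. Many ribosomal protein genes rose in Model. Of 71 members tested, 40 were higher and 0 lower at an adjusted p under 0.05 (quasi-likelihood test of edgeR, Benjamini-Hochberg adjusted), against 27.3% of all 12884 genes higher and 26.6% lower. Without the 9 members, which were selected on CPM of these libraries, 31 of 62 were higher. The 0 lower stood beside 0 at an unadjusted p under 0.05 (29.4% of all genes) and 0 by DESeq2. The median log2 fold change over the 71 members was 0.37, against 0.01 over all genes tested. A rise over 2-fold was called for 12 members, of which 9 are those at which Model replicate 3 lay with Sham, whose calls are no independent result, and Rps20 and Rps27l are among the others (9.43% of all genes passed this rule upwards). Model and Sham did not overlap, with Model higher, at 39 members (32.1% of all genes). Of the large subunit 26 of 36 core members rose, and of the small subunit 11 of 28. These counts include the 9 selected members, of which Rps4x and Rps6 are of the small subunit and the others of the large. The difference between the subunits is thus a description. In bulk tissue, a change in the number of cells of a type and a change in RNA per cell cannot be told apart, and levels are relative to the other genes of the library.

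Rps27l, a paralog of Rps27 known as a p53 target, was at 8.00, 8.34 and 8.56 CPM in Sham and at 26.6, 25.9 and 26.4 in Model. Its log2 fold change was 1.67 (SE 0.13, adjusted p = 3.89e-05), the lowest adjusted p of the members. The 3 Model libraries, replicate 3 included, were together and far above Sham. Rps13 rose by 0.78 (SE 0.09, adjusted p = 0.000213), from 103, 120 and 107 CPM to 187, 183 and 193. Rpl18 rose by 0.69 (SE 0.09, adjusted p = 0.000337), from 121, 124 and 109 CPM to 194, 181 and 190. At both genes Model replicate 3 lay with the other Model libraries and the groups did not overlap.

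By place in the ribosome, 5 of 9 proteins of the exit tunnel and its rim were called higher, against 27.3% of all genes, and Rpl22 and Rpl39 of the 5 are among the 9 members selected on these libraries. Of the others Rpl17 rose from 151, 163 and 140 CPM in Sham to 260, 259 and 208 in Model (log2 fold change 0.69, SE 0.11, adjusted p = 0.00124), while Rpl4 and Rpl19 rose by 0.46 and 0.42. The tunnel proteins Rpl23a, Rpl26, Rpl31 and Rpl35 had log2 fold changes between −0.15 and 0.09 and were not called. Of the stalk, which recruits elongation factors, the base protein Rplp0 rose from 329, 372 and 303 CPM to 513, 479 and 476 (log2 fold change 0.56, SE 0.10, adjusted p = 0.00158). Its partners Rplp2 and Rplp1 had log2 fold changes of 0.19 (adjusted p = 0.138) and −0.19 (adjusted p = 0.321). Rplp1 was at 382, 518 and 355 CPM in Sham and 344, 337 and 415 in Model, so the groups overlapped.

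Rpl5 and Rpl11, which carry 5S rRNA into the large subunit and can bind Mdm2, rose by 0.37 (adjusted p = 0.00687) and 0.42 (adjusted p = 0.0052). At the mRNA channel, Rps2 rose by 0.38 (adjusted p = 0.0127) and Rps3 by 0.27 (adjusted p = 0.0351), while Rps15 and Rps23 had log2 fold changes of 0.04 and 0.02. Rpl3, Rpl4 and Rps2 had the most counts among members. Rpl3, at the catalytic centre, was at 405, 381 and 356 CPM in Sham and 512, 510 and 500 in Model. Rps21, a small subunit surface protein, had the lowest log2 fold change of the members at −0.28 (adjusted p = 0.0917), with 192, 216 and 158 CPM in Sham and 145, 148 and 170 in Model.

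Of the paralogs, Rpl7l1 rose by 0.91 (SE 0.10, adjusted p = 0.000197), from 76.4, 81.4 and 76.3 CPM to 163, 142 and 132. Rpl22l1, the paralog of Rpl22, rose by 0.51 (SE 0.17, adjusted p = 0.0302), and Model replicate 3 at 52.5 CPM was inside the Sham range of 45.6 to 55.1. Rpl10l, Rpl31l4, Rps10l1 and Rps15al4 were not called, with adjusted p between 0.216 and 0.79.

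At the 9 members log2 fold changes lay between 1.00 and 2.16, with SEs of 0.21 to 0.54, as for Rpl39 (2.16, SE 0.54) and Rpl38 (1.69, SE 0.50). The rule that chose them required Model replicates 1 and 2 to lie 1.5-fold outside Sham, so these values are a description. The median log2 fold change of the other 62 members was 0.28. When Model replicate 3 stood alone for Model, a fit added after seeing the data, 24 members were called higher, all of them among the 40, and 3 of the 9 were among them (Rpl8, Rps4x and Rps6). There the spread came from the 3 Sham libraries alone, so the lone library was assumed to vary like them, and it had been singled out from these same values, so the count is a description. Without Model replicate 3, 41 were called, of which 39 were among the 40, and Rps21 was called lower. With all 12 libraries fitted together and a factor for the division into Sham with Model replicate 3 and the 8 others, 12 were called. That division follows the CPM that chose the 9, so its effect on their calls was fixed by the choice. The marker levels of other cell types moved with Model too: 6 neutrophil genes summed to 11.6 to 16.9 CPM in Sham and 88.2 to 122 in Model with none at 0, most of it Mmp9 (77.8 to 105 CPM in Model) and with 2 of the 5 tested called higher (median log2 fold change 0.32), 6 genes of infiltrating monocytes and macrophages to 54.7 to 71.0 and 186 to 262, and 6 oligodendrocyte genes to 12010 to 17910 and 1672 to 8505. Their part in the result was not tested.

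**Figure D4:**
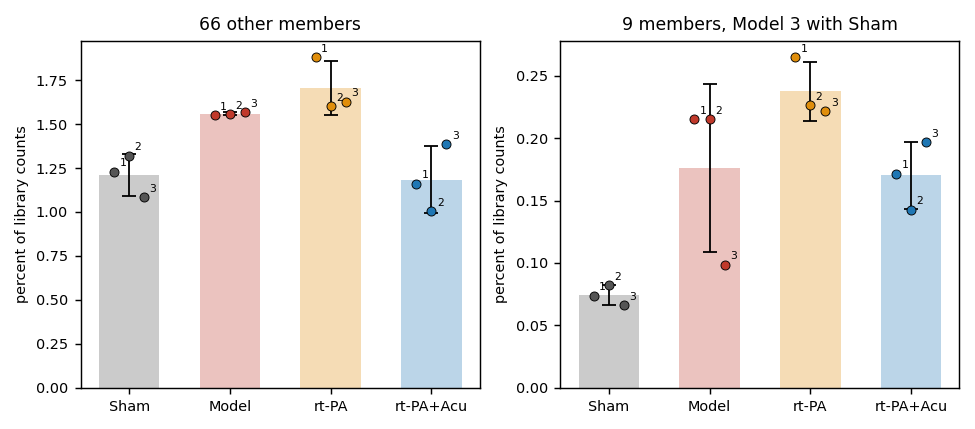
Percent of all counts of a library in the 66 other members (left) and in the 9 members at which Model replicate 3 lies with Sham (right). Points are libraries numbered by replicate, and bars with whiskers are the mean and SD of each group of 3. In the left panel the Model libraries lie between 1.55% and 1.57%, and in the right panel Model replicate 3 lies at 0.0986%, apart from 0.215% in the other Model libraries.

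Comparing rt-PA with Model asks what late thrombolysis changed. No difference passed the test at the ribosomal protein genes: 0 of 71 members were called by the quasi-likelihood test of edgeR, Benjamini-Hochberg adjusted, as were 0 of 12941 genes (0%). At an unadjusted p under 0.05 there were 0 members (5.19% of all genes higher and 4.73% lower), and DESeq2 called 0 members. The study itself, with DESeq2 and a threshold on fold change, did report differentially expressed genes between these groups. The 0 over all genes thus holds for the edgeR test alone. The median log2 fold change of members was 0.09, with values between −0.11 and 0.80. At the 9 members at which Model replicate 3 lay with Sham the values lay between 0.27 and 0.54 (median 0.38). The median of the 62 other members was 0.08. The rule that chose the 9 set Model replicate 3 apart from all rt-PA libraries, so their values are a description. The lowest adjusted p was that of Rps27l (0.524), which was at 35.5, 29.0 and 30.1 CPM in rt-PA, all above the 3 Model libraries. The groups did not overlap, with rt-PA higher, at 8 members (7.84% of all genes).

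Relative to Sham, rt-PA libraries had 43 of 71 members higher and 0 lower, against 27.4% and 27.3% of all genes, with a median log2 fold change of 0.42. Without the 9 members, which were selected on CPM of these libraries, 34 of 62 were higher, with a median of 0.38. The 0 lower stood beside 1 at an unadjusted p under 0.05 (30% of all genes) and 1 by DESeq2, Rps21. This comparison shares its Sham libraries with that of Model. Rps20, a protein of the small subunit head, had the lowest adjusted p of the members. It was at 230, 200 and 212 CPM in rt-PA, a log2 fold change of 2.29 over Sham (SE 0.10, adjusted p = 7.23e-06). Rpl39 had the largest, 2.67 (SE 0.13), and the 9 members ranged from 1.32 to 2.67. At each of the 9 the groups were apart, as the rule that chose them required, so these values are a description.

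Comparing rt-PA+Acu with rt-PA asks what acupuncture changed in rats that received rt-PA, and none of its 6 libraries is Sham or Model replicate 3. Many ribosomal protein genes were lower with acupuncture. Of 71 members 39 were called lower and 0 higher, against 17.7% of all 12999 genes lower and 17% higher, and the median log2 fold change was −0.43 against −0.003 over all genes. The 0 higher stood beside 0 at an unadjusted p under 0.05 (22.5% of all genes) and 0 by DESeq2, which called 43 lower. The estimate was below 0 at 69 of the 71, with Rpl30 and Rpl38 the exceptions, at 0.03 and 0.04. The groups did not overlap, with rt-PA+Acu lower, at 63 members (26.5% of all genes). A fall over 2-fold was called at 2, Rps27l and Rpl31l4 (8.16% of all genes). Of the large subunit 22 of 36 core members fell, and of the small subunit 14 of 28. Both counts include members that were selected on CPM of these libraries.

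Rps27l was at 35.5, 29.0 and 30.1 CPM in rt-PA and at 11.2, 12.6 and 21.9 in rt-PA+Acu, a log2 fold change of −1.04 (SE 0.26, adjusted p = 0.0187). Rpl17 was at 205, 254.7 and 257 CPM in rt-PA and 144, 105 and 150 in rt-PA+Acu (log2 fold change −0.84, SE 0.17, adjusted p = 0.00881). Rps2, at the mRNA entry, was at 758, 670 and 667 CPM and at 390, 388 and 503 (log2 fold change −0.71, SE 0.14, adjusted p = 0.00928). At all 3 genes the groups were apart. Rpl18 fell by 0.70 (adjusted p = 0.0225), with 235, 187 and 187 CPM in rt-PA and 120, 99.9 and 155 in rt-PA+Acu. Rpl31l4, with levels of 1.94 to 2.01 CPM in rt-PA and 0.959 to 1.01 in rt-PA+Acu, fell by 1.01 (SE 0.32, adjusted p = 0.043) and rests on 11 to 28 counts a library.

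Of the stalk Rplp0 fell by 0.67 (adjusted p = 0.0113) and Rplp2 by 0.49 (adjusted p = 0.0142), and Rplp1 had −0.28 (adjusted p = 0.0591). Both 5S rRNA partners fell, Rpl5 by 0.42 (adjusted p = 0.0418) and Rpl11 by 0.52 (adjusted p = 0.0263). Of 9 tunnel proteins 4 fell, Rpl4, Rpl17, Rpl19 and Rpl35. Rps3 fell by 0.48 (adjusted p = 0.0245), while Rps15 and Rps23 had −0.27 and −0.35 with adjusted p of 0.138 and 0.0741. Rpl3 fell by 0.40 (adjusted p = 0.0495) and was at 588, 502 and 516 CPM in rt-PA and 384, 371 and 463 in rt-PA+Acu. Of the paralogs Rpl7l1 fell by 0.56 (adjusted p = 0.0223), and Rpl22l1 had −0.18 (adjusted p = 0.199).

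Among the 9 members, 4 fell (Rpl8 by 0.42, Rpl12 by 0.42, Rps4x by 0.49 and Rps6 by 0.59, adjusted p between 0.0226 and 0.0474). The others were Rpl39 at −0.40 (adjusted p = 0.0519), Rpl22 at −0.30, Rpl9 at −0.27, Rpl38 at 0.04 and Rpl30 at 0.03. Of the 62 other members 35 fell. The rule that chose the 9 needed each treated library to stand more than 1.5-fold outside the Sham range. A member that had come back to the Sham level with acupuncture could thus not be among the 9. Their values and calls here are a description, and their share is not to be set against that of the others. Of the 9, 0 were called without rt-PA replicate 1, without rt-PA replicate 3, without rt-PA+Acu replicate 1, without rt-PA+Acu replicate 2 or in the fit over all 12 libraries, while 3 were called without rt-PA replicate 2 and 6 without rt-PA+Acu replicate 3.

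The number of members called lower depended on single libraries. It was 10 without rt-PA replicate 1, 13 without rt-PA replicate 3, 13 without rt-PA+Acu replicate 1, 11 without rt-PA+Acu replicate 2, 30 without rt-PA replicate 2 and 48 without rt-PA+Acu replicate 3, while the median log2 fold change stayed between −0.51 and −0.34. Each of these fits has 1 library fewer, and the share of all genes called in it was not computed. A lower count is thus not shown to be particular to the members. Called in each of these 6 fits were 10 members, among them Rpl10a, Rpl17, Rpl23, Rplp0, Rps2, Rps9, Rps13, Rps20 and Rps28. Rps9 had the lowest adjusted p of the comparison (0.00667), at 243, 228 and 231 CPM in rt-PA and 142, 160 and 166 in rt-PA+Acu. Neutrophil genes summed to 120 to 152 CPM in rt-PA, of which Mmp9 made up 70.2 to 105, and 23.7 to 31.0 in rt-PA+Acu, where Mmp8 was at 0 and 5 of the 6 were called lower, monocyte and macrophage genes to 266 to 472 and 32.3 to 61.8, and 5 endothelial genes to 237 to 353 and 75.5 to 86.4. Their part in the result was not tested.

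**Figure D5:**
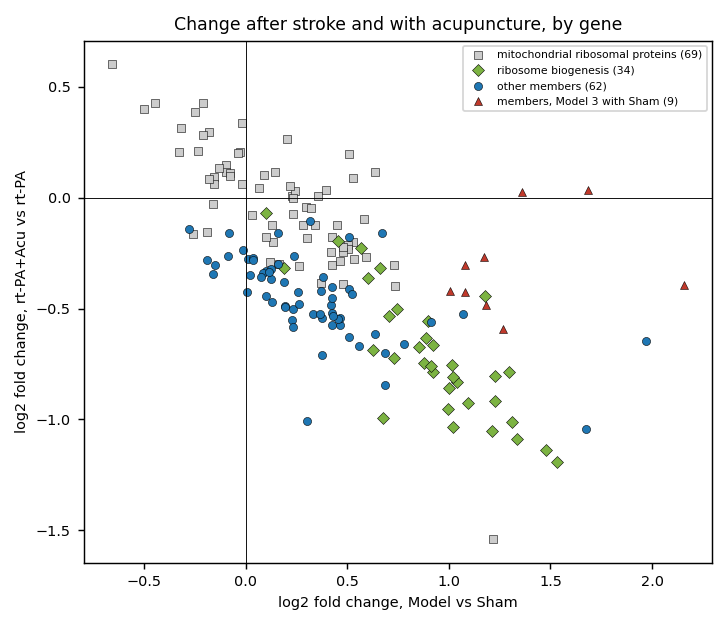
Log2 fold change of rt-PA+Acu over rt-PA (vertical axis) against that of Model over Sham (horizontal axis), 1 point a gene, for the 9 members at which Model replicate 3 lies with Sham, the 62 other members tested, 34 ribosome biogenesis genes and 69 mitochondrial ribosomal protein genes. Members other than the 9 all lie below 0 on the vertical axis, and Rpl30 and Rpl38 lie at 0.03 and 0.04.

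The comparisons of Model with Sham and of rt-PA+Acu with rt-PA share no libraries. Of the 40 members called higher in the first and the 39 called lower in the second, 30 were common, 75.0% of the first and 76.9% of the second. Those called in the first and not in the second were Rpl21, Rpl22, Rpl22l1, Rpl24, Rpl27, Rpl30, Rpl38, Rpl39, Rpl9 and Rps3a. Without the 9 members, 26 were common to 31 and 35. With 40 and 39 of 71 members called, part of the overlap follows from the counts alone. The share of all genes called in both comparisons was not computed, so the overlap is a description without a test.

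Comparing rt-PA+Acu with Model gave 29 members lower and 0 higher, against 16.9% of all 12855 genes lower and 17.4% higher, with a median log2 fold change of −0.32. The 0 higher stood beside 0 at an unadjusted p under 0.05 (22.9% of all genes) and 0 by DESeq2. This comparison shares libraries with both before it, and Model replicate 3 is 1 of its Model libraries. Of the 9 members at which that library lay with Sham, 0 were called, with a median log2 fold change of −0.009. Of the 62 other members 29 were called lower, with a median of −0.37. The 9 were selected on these libraries, so their values are a description. Rpl17 was the lowest, at −0.86 (SE 0.17, adjusted p = 0.00722), followed by Rps27l at −0.79 (adjusted p = 0.0426). The count was 7 without Model replicate 1, 7 without Model replicate 2, 18 without Model replicate 3, 7 without rt-PA+Acu replicate 1, 4 without rt-PA+Acu replicate 2 and 39 without rt-PA+Acu replicate 3. Rpl17, Rps2, Rps13 and Rps28 were called in each of these fits. Here too the share of all genes called was not computed.

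Comparing rt-PA+Acu with Sham asks what remained different from uninjured cortex after both treatments. Most members were not called different from Sham, and a few were higher. Of 71 members 12 were called higher and 0 lower, against 1.7% of all 12775 genes higher and 3.4% lower, and the median log2 fold change was −0.07. The 0 lower stood beside 9 at an unadjusted p under 0.05 (12.9% of all genes) and 3 by DESeq2, Rpl31, Rplp1 and Rps21. The 12 were the 9 members at which Model replicate 3 lay with Sham and 3 just outside that rule, Rps20 and Rpl21 among them. The rule that chose the 9 required all rt-PA+Acu libraries to lie 1.5-fold above Sham, so their calls are no independent result.

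The largest differences were those of Rpl39, with a log2 fold change of 2.29 (SE 0.15), Rpl38 with 2.08 (SE 0.27), Rps20 with 1.66 (SE 0.13, adjusted p = 0.00188) and Rpl30 with 1.64 (SE 0.33). At Rps20 the rt-PA+Acu libraries were at 136, 118 and 156 CPM, between Sham (40.5 to 46.5) and rt-PA (200 to 230). Rpl21 was at 252, 251.3 and 201 CPM in Sham and 432, 370 and 429 in rt-PA+Acu (log2 fold change 0.80, adjusted p = 0.0145).

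Rps27l, for which Model replicate 3 lay with the other Model libraries, had a log2 fold change of 0.88 (SE 0.26, adjusted p = 0.0961), with the 3 rt-PA+Acu libraries above Sham. Rplp0 was at 327, 296 and 391 CPM in rt-PA+Acu and had a log2 fold change of 0.02. Rplp1, the lowest, had −0.57 (SE 0.15, adjusted p = 0.0679), with 290, 270 and 285 CPM in rt-PA+Acu, all below the 3 Sham libraries. Groups did not overlap at 17 members with rt-PA+Acu higher and 12 with it lower (14.9% and 15.8% of all genes). Because Model replicate 3 is the sole injured library on the Sham side at the 9 members, injury and whatever sets the other 8 libraries apart cannot be told apart in the comparisons of rt-PA and rt-PA+Acu with Sham.

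Other genes of the pathway were read from lists that were drawn up with earlier results of these libraries known. Of 22 translation factors and other genes with TOP mRNAs 16 were in the table, and 14 rose in Model over Sham (27.3% of all genes did) while 11 fell in rt-PA+Acu against rt-PA (17.7% of all genes), all 11 being among the 14. Npm1, the nucleolar chaperone nucleophosmin, rose by 1.32 and fell by 0.93, and Pabpc1, the poly(A)-binding protein, rose by 1.10 and fell by 0.94. Eef1a1, the factor that brings aminoacyl-tRNA to the ribosome, rose by 0.38 (adjusted p = 0.0114) and fell by 0.57 (adjusted p = 0.0164). Rack1 and Fau encode small subunit proteins whose names lie outside the symbol rule. Rack1 rose by 0.47 and fell by 0.66, and Fau had log2 fold changes of 0.03 (adjusted p = 0.871) and −0.29 (adjusted p = 0.0939). Against Sham, 0 of the 16 were called in rt-PA+Acu, where 1.7% of all genes were higher and 3.4% lower.

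Of 34 ribosome biogenesis genes, 32 rose in Model over Sham (median log2 fold change 0.92), against 27.3% of all genes, and 28 fell in rt-PA+Acu against rt-PA (median −0.76), against 17.7%. Fbl, the methyltransferase fibrillarin, rose by 1.53 (SE 0.15, adjusted p = 0.000103) and fell by 1.19 (SE 0.16, adjusted p = 0.00266). Ddx21, a nucleolar helicase, rose by 1.48 and fell by 1.14. Nop10, of the pseudouridylation particle, had 0.10 and −0.07 and was not called in either. Against Sham, 0 of the 34 were called in rt-PA+Acu (1.7% of all genes higher and 3.4% lower), and their median log2 fold change was 0.23.

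A list of 24 genes held those of mTOR and S6 kinase, other genes of translation control, and transcription factors such as Myc. Of these 24, 11 rose and 5 fell in Model over Sham (27.3% and 26.6% of all genes). In rt-PA+Acu against rt-PA 1 rose and 10 fell (17% and 17.7% of all genes). Myc rose by 3.82 (SE 0.31, adjusted p = 4.36e-05) and fell by 2.76 (SE 0.29, adjusted p = 0.00133). Ddit4, an inhibitor of mTORC1, moved the other way, with log2 fold changes of −2.12 (adjusted p = 0.00368) and 1.40 (adjusted p = 0.00697). Rheb, the GTPase that activates mTORC1, rose by 1.15 and fell by 0.56, and Larp1 rose by 0.45 and fell by 0.39.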

How the data were processed

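Per the labels and the study's methods, poly(A) RNA of cerebral cortex was made into strand-marked paired-end libraries, which the authors aligned with STAR 2.7.10a to mRatBN7.2; the submitters' processing notes also name featureCounts 2.0.1 and Salmon 1.9.0. What was deposited are unnormalized counts per gene symbol, in whole numbers. How Salmon's estimates became whole numbers and whether the molecular identifiers in the adapters were used are not given in the sources used here, so limits drawn from counts hold for counting error alone. Libraries were grouped by their labels, with 3 in each of 4 groups. The p-values set the difference between groups against the spread of these libraries within groups.

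Each of 6 comparisons was fitted on its own 6 libraries in R 4.3.3 with edgeR 4.0.16 (TMM, filterByExpr, quasi-likelihood test, two-sided, Benjamini-Hochberg adjustment over all genes tested), and called at an adjusted p under 0.05. A count over 2-fold also needed an absolute log2 fold change over 1. Depth was 11678450 to 13616935 counts per library. Alternatives were DESeq2 1.42.0, RLE, upper quartile or library size scaling, TMM without the members, other count filters, 1 fit over all 12 libraries, a term for the division of the libraries, a replicate block, and each library left out. Fits in which Model replicate 3 stood alone for Model, and counts without the 9 members, were added after seeing the data. Steps were tested on simulated data. Python 3.11.15 and matplotlib 3.10.9 served for plots.

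Members, gene lists and the division of libraries were chosen with earlier results of these data known. Genes were named when they were among the 5 members with the largest rise or fall of a comparison that were called, had a mean of at least 1 CPM and groups that did not overlap, when they were paralogs, in the tunnel, stalk, 5S or mRNA channel lists, in the set at which Model replicate 3 lay with Sham, Rps6, among the 3 members with the most counts, or at either end of another list; Rps9, Rps21, Rpl10a, Rpl23, Rps28 and others of small counts were named after their values were seen. Larp1, Sesn2, Rptor, Mlst8 and Mtor were also named after their values were seen. The part of the naming rule that used protein length could not be applied. Some genes that the rule takes are not reported by name here, and their values stand only in the counts, medians and shares. Promoter stretches and copy entries come from RefSeq (GRCr8), which is not the build of the counts. Levels were not compared between genes, other than to name the 3 members with the most counts, where gene length was not taken into account.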

Additional observations from a re-analysis of the deposited data

How the results depend on the processing

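The direction of each median held under the scalings tried, and library size alone moved the median of all genes by up to 0.15 on the log2 scale, in rt-PA vs Sham, where the members' median became 0.56. Of 5656 values of single named genes, 5267 kept direction and side of the threshold, 315 lost it, 74 gained it and 0 reversed. In Model vs Sham the count of members called higher was 12 with the term for the division of the libraries and 24 with Model replicate 3 alone, which also called 1 lower. In rt-PA vs Sham, DESeq2, RLE scaling and the replicate block each called 1 lower. In rt-PA+Acu vs Sham, DESeq2 called 3 lower and the fit over 12 libraries 1, and without the 9 members 3 were higher. The 2-fold margin put 3 members with Sham. Leaving out 1 library gave 30 to 41 higher and 0 to 1 lower in Model vs Sham (1 without Sham replicate 3 and 1 without Model replicate 3), 0 and 0 in rt-PA vs Model, 10 to 48 lower for rt-PA+Acu vs rt-PA, 37 to 44 higher and 0 to 1 lower in rt-PA vs Sham (1 without Sham replicate 3), 8 to 13 higher in rt-PA+Acu vs Sham, and 4 to 39 lower in rt-PA+Acu vs Model. Medians then lay between 0.30 and 0.42, 0.02 and 0.13, −0.51 and −0.34, 0.35 and 0.49, −0.15 and 0.03, and −0.41 and −0.26 in the same order. The share of all genes called in these smaller fits was not computed, and the cause was not tested. The replicate numbers are not shown to pair rats: deviations of same-numbered libraries correlated over 0.1 in 3 of 18 pairs (range −0.25 to 0.15), and each library was closest to its own number in Model vs Sham only (6 of 6, and 0 to 3 of 6 elsewhere). With the replicate block the counts were 38 higher in Model vs Sham, 29 lower for rt-PA+Acu vs rt-PA, and 10 lower for rt-PA+Acu vs Model.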

Other observations

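The ribosome of mitochondria, which translates the mRNAs of the mitochondrial genome and is encoded by separate nuclear genes, is set beside the cytosolic members as a description. Of 69 mitochondrial ribosomal protein genes, 21 rose and 2 fell in Model against Sham (27.3% and 26.6% of all genes; median log2 fold change 0.20), the first near the share of all genes, and 2 rose and 2 fell with acupuncture against rt-PA alone (17% and 17.7% of all genes; median 0.0003), by the quasi-likelihood test of edgeR, Benjamini-Hochberg adjusted. Mrpl17 and Mrps2 were called in both, with log2 fold changes of 0.48 and 0.74 in the first and −0.39 and −0.40 in the second. Mrpl36 had −0.66 (adjusted p = 0.0186) and 0.60 (adjusted p = 0.0309). Mrps17 had the largest estimates, 1.22 (SE 0.42, adjusted p = 0.0367) and −1.54 (SE 0.80, adjusted p = 0.169), the second not called. The 69 genes took 0.183% to 0.187% of the counts in Sham, 0.223% to 0.226% in Model, 0.211% to 0.236% in rt-PA and 0.198% to 0.212% in rt-PA+Acu. In rt-PA+Acu against Sham 1 of the 69 was called higher and 0 lower (1.7% and 3.4% of all genes).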
